A study of Mus musculus with 6 samples.

Results

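The genes described here are the 5 subunits of the transcription factor NF-kB (Nfkb1, Nfkb2, Rel, Rela and Relb) and 5 of the inhibitors that restrain it (Nfkbia, Nfkbib, Nfkbie, Nfkbiz and Tnfaip3). They were chosen by symbol in the table of protein-coding genes that the authors compared, and all 10 were found there among 15973 genes, each with 1 gene ID. All 10 also passed the filter on low counts, which left 12572 genes to test. The cells were 4T1-T, which is a single sub-clone derived from 4T1, a mammary carcinoma line of the mouse, and which the study classes as proficient in vasculogenic mimicry, the lining of vessel-like channels by tumour cells. On each of 3 occasions the cells were starved of serum overnight, given acetylated low-density lipoprotein (acLDL) labelled with Alexa-488 at 10 ug/mL for 4 h, returned to complete medium for 1 h, trypsinized and sorted by fluorescence. The brightest 25% of cells are the acLDL-high population and the dimmest 25% the acLDL-low population, so both carry every step of this treatment, and unlabelled or unsorted cells were not analysed here. RNA of each population was sequenced on each occasion, which gave 3 libraries per population and 3 pairs with the same replicate number. That a pair with the same number came from the same occasion is not stated outright, but its libraries deviated together, and the pairs are called occasions on that ground.

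NF-kB dimers are held in the cytoplasm by IkB proteins. Signals from receptors for TNF, interleukin-1 or microbial products activate the IkB kinase, IkB is degraded, and the freed dimers enter the nucleus. Among the genes they then induce are those of IkB proteins themselves and of A20, so that the pathway is switched off by its own products. In carcinoma cells NF-kB is known for driving chemokines, cytokines and survival genes.

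Within this family 4 inhibitors and 1 subunit were called higher in acLDL-high cells. Tnfaip3, Nfkbiz, Nfkbia and Nfkbie rose by 50.8%, 40.0%, 32.0% and 16.9%, and of the subunits Rel rose by 21.4%. These 5 of 10 genes had an adjusted p under 0.05 by the quasi-likelihood test of edgeR, in which replicate numbers entered as blocks, and none fell. Over all 12572 genes, 4.75% passed in either direction, 3.43% as higher and 1.32% as lower. The family was chosen with earlier results of these data known, so its share is not independent of those results. By role, 4 of 5 inhibitors and 1 of 5 subunits were called in this fit. The median log2 fold change was 0.40 for the inhibitors and 0.14 for the subunits, beside 0.00168 for all genes tested. Whether inhibitors and subunits differ from each other in response was not tested. The 5 calls became 1 (Tnfaip3) without replicate 3 and 3 (Rel, Nfkbie and Tnfaip3) in DESeq2 with the same block. They became 7 without replicate 2, as the subunits Nfkb1 and Relb were then also called. Without the block 0 of the 10 genes were called in edgeR, and 0 had an unadjusted p under 0.05.

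Several of these genes have motifs for NF-kB itself near their start, and a stretch is shown for each gene with a match, called or not. Whether the motifs bear on the difference between the populations was not tested. RefSeq promoters (GRCm38.p6, 250 bases before to 50 after the start) were given for 7 of the 10 genes, in 10 windows, and not for Nfkb1, Relb and Nfkbiz. The kB consensus motif, searched on both strands with overlapping matches allowed, was in at least 1 window of 5 of these 7 genes (Nfkb2, Rel, Nfkbia, Nfkbie and Tnfaip3) and in 7 of the 10 windows. It was in 9.55% of the 27025 genes with a RefSeq promoter and in 8.46% of all 32851 windows. No match was found in the windows of Rela and Nfkbib. The 150 bases before the start of the first window are printed 5′ to 3′ on the strand of the gene, with bases of a match to the kB consensus on either strand in capitals.
Nfkb2, chr19:46304587-46304736, plus strand: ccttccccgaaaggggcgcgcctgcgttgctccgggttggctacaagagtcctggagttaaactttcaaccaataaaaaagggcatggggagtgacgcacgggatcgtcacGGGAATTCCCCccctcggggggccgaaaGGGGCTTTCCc
Rel, chr11:23770970-23771119, minus strand: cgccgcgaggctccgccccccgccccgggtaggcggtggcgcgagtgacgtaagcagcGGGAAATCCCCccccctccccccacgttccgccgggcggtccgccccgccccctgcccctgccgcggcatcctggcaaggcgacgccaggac
Nfkbia, chr12:55492648-55492797, minus strand: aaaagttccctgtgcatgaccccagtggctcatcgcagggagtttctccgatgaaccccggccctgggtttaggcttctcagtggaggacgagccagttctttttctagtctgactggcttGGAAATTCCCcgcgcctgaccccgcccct
Nfkbie, chr17:45555550-45555699, plus strand: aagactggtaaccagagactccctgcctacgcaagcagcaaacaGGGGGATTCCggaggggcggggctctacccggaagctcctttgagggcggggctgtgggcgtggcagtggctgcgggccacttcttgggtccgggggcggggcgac
Tnfaip3, chr10:19015411-19015560, minus strand: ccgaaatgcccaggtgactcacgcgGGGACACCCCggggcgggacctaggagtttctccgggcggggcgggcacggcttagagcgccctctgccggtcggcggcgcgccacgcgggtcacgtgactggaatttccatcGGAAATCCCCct

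A match is a run of letters and not a measured binding site. In Nfkb2 the matches before this start begin 39, 38 and 11 bases upstream. In Rel a match begins 92 bases, in Nfkbia 29 bases and in Nfkbie 106 bases upstream. In Tnfaip3 matches begin 125 and 12 bases upstream. Among first windows of the 7 genes that had one, Nfkb2 held the most matches. It held 4, against 3 each in Rel and Tnfaip3, with overlapping runs and both strands counted. Nfkb2 was not among the genes called.

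The libraries held between 70263400 and 94216800 counts (totals to 6 digits), with 98.4% to 98.7% in the protein-coding genes compared, so that 3 counts correspond to at most 0.0429 CPM, the count scaled to library size by TMM. This floor covers counting error only, and every gene of the family lay far above it. Epithelial markers were abundant, with a sum over 7 markers of 3053 to 4507 CPM in acLDL-low and 3444 to 4743 CPM in acLDL-high cells. All 7 had a positive log2 fold change, and 2 were called higher, beside 4.75% of all genes in either direction. These were Cldn4 (0.53, adjusted p = 0.000832 from edgeR) and Cldn3 (0.28, 0.0161). The macrophage genes Adgre1, C1qa, C1qb and Tyrobp had 0 counts in every library, and the sum over 10 macrophage markers was 7.91 to 10.8 CPM against 6.89 to 8.27 CPM, nearly all of it Cd68. The sum over 10 endothelial markers was 1.96 to 3.18 CPM against 1.80 to 2.64 CPM, with Flt4, Emcn and Cldn5 at 0. Over 6 fibroblast markers the sum was 28.2 to 41.0 CPM against 28.9 to 43.4 CPM, nearly all Pdgfra, with Lum and Thy1 at 0. In RNA of sorted populations, a change in the number of expressing cells and a change in RNA per cell cannot be told apart.

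**Figure D1:**
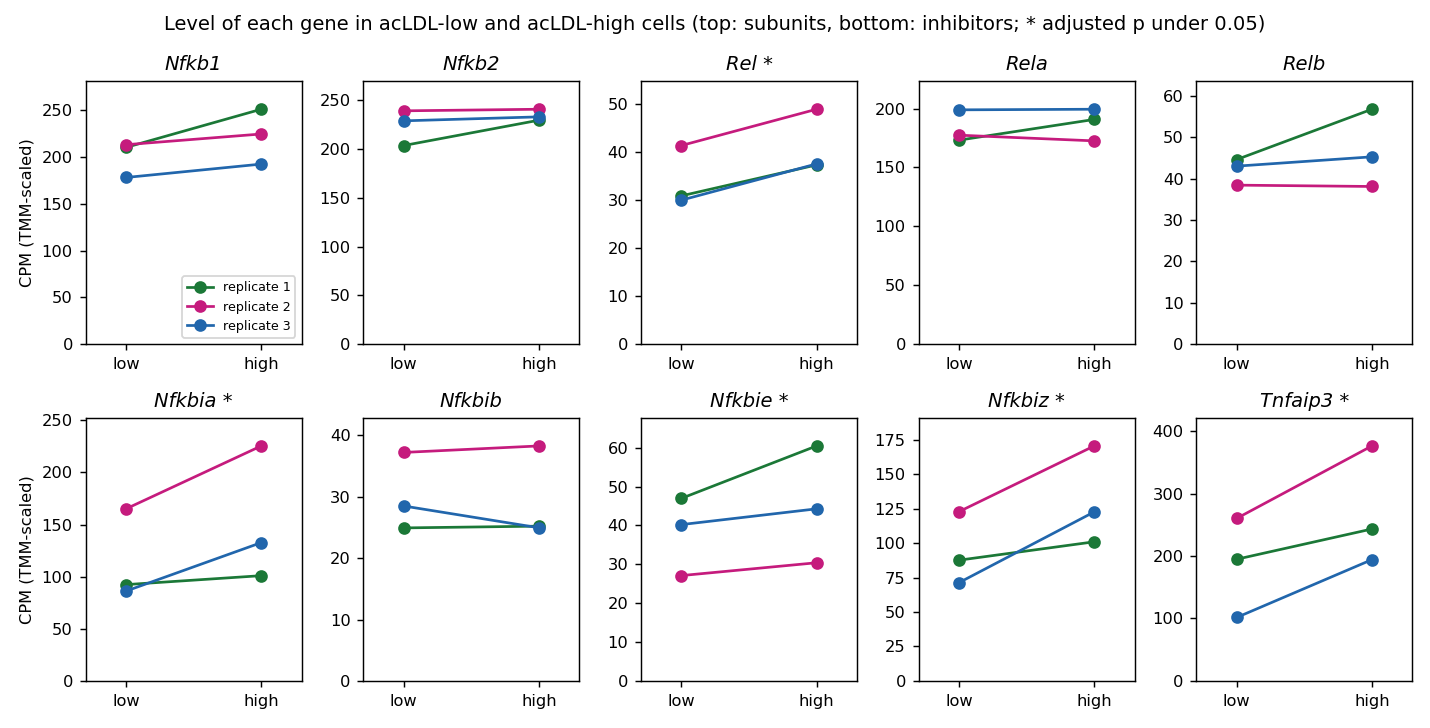
TMM-scaled CPM of each gene (y axis, from 0) in acLDL-low and acLDL-high cells (x axis), with 1 line for each of the 3 replicate numbers, subunits above and inhibitors below. All 3 lines slope upwards for the called genes Rel, Nfkbia, Nfkbie, Nfkbiz and Tnfaip3, and also for Nfkb1 and Nfkb2, which were not called. The distance between lines is larger than the slope for several of the called genes.

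Tnfaip3 encodes A20, an enzyme that edits ubiquitin chains on signalling proteins upstream of the IkB kinase. It lies on chromosome 10 of GRCm38 from 19000910 to 19015657. In acLDL-low cells of replicates 1, 2 and 3 it was at 195, 260.4 and 102 CPM, and in acLDL-high cells at 243, 376 and 194 CPM. The acLDL-high library was the higher of its pair on every occasion, but the populations overlapped, and replicate 2 was the highest and replicate 3 the lowest in both. The means were 271 ± 94.3 CPM against 186 ± 79.8 CPM (SD, n = 3). The log2 fold change was 0.59 (standard error 0.08, 95% interval 0.41 to 0.77, adjusted p = 0.00141 from edgeR), the largest of the family. Pairs 1, 2 and 3 gave 0.32, 0.53 and 0.93. It was the one gene of the family still called when replicate 3 was left out, at 0.43 (adjusted p = 0.0158).

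Nfkbiz encodes IkB-zeta, an inducible nuclear protein that binds NF-kB dimers on DNA and at some genes raises rather than lowers their activity. Its levels on chromosome 16, from 55811375 to 55838899, were 87.6, 123 and 71.4 CPM in the acLDL-low libraries and 101, 171 and 123 CPM in the acLDL-high ones. Replicate 2 was the highest in both populations. Its log2 fold change was 0.49 (standard error 0.08, 95% interval 0.32 to 0.65, adjusted p = 0.00375 from edgeR). The pairs gave 0.20, 0.47 and 0.78. In DESeq2 with the same block the adjusted p was 0.132 at a log2 fold change of 0.49. Without replicate 3 edgeR gave 0.34 and an adjusted p of 0.0590.

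Nfkbia encodes IkB-alpha, the inhibitor that is degraded and made again most rapidly after stimulation. It is on chromosome 12 from 55489410 to 55492647. Its values were 92.4, 165 and 86.2 CPM in the acLDL-low libraries and 101, 225 and 133 CPM in the acLDL-high ones. The acLDL-low library of replicate 2 was above the acLDL-high libraries of replicates 1 and 3. The log2 fold change was 0.40 (standard error 0.07, 95% interval 0.25 to 0.55, adjusted p = 0.00657 from edgeR). Pair 1 gave 0.13, and pairs 2 and 3 gave 0.45 and 0.62. With DESeq2 the adjusted p was 0.0958, and without replicate 3 it was 0.125 in edgeR at a log2 fold change of 0.29.

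Nfkbie encodes IkB-epsilon, a further inducible inhibitor of RelA and c-Rel dimers, on chromosome 17 from 45555703 to 45563169. It stood at 47.0, 27.1 and 40.2 CPM in the acLDL-low libraries and at 60.4, 30.4 and 44.3 CPM in the acLDL-high ones. Replicate 2, which was highest for Nfkbia, Nfkbiz and Tnfaip3, was lowest for Nfkbie in both populations. On the log2 scale Nfkbie differed by 0.23 (standard error 0.05, 95% interval 0.11 to 0.34, adjusted p = 0.0325 from edgeR). In the pairs it was 0.36, 0.17 and 0.14. It was not called without replicate 1 (0.15, adjusted p = 0.178) or without replicate 3 (0.27, adjusted p = 0.104).

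Nfkbib encodes IkB-beta, which is not part of the rapid feedback of IkB-alpha. It is on chromosome 7 from 28758251 to 28767512, and 1.94% of its exon bases overlap Sirt2 and 14.5% overlap Ccer2, both on the opposite strand. It was at 24.9, 37.2 and 28.5 CPM in the acLDL-low libraries and 25.2, 38.3 and 24.9 CPM in the acLDL-high ones. Its populations overlapped almost completely. The estimate for Nfkbib was -0.04 on the log2 scale (standard error 0.06, 95% interval -0.17 to 0.08, adjusted p = 0.736 from edgeR). This interval lies below the estimates of the 4 other inhibitors, although a difference between the genes was not tested.

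**Figure D2:**
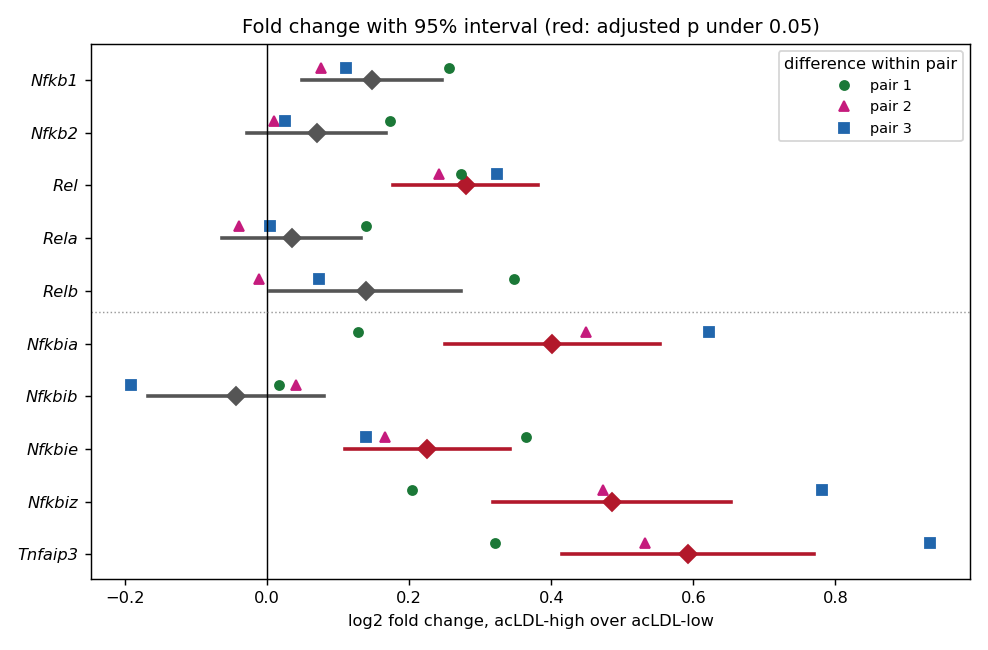
Log2 fold change of acLDL-high over acLDL-low cells (x axis) for each gene, as a diamond with the 95% interval of the edgeR fit, and the difference within each of the 3 pairs as small symbols just above it. Red marks the 5 genes with an adjusted p under 0.05, while the intervals of Nfkb1 and Relb, which are not adjusted, also lie above 0, and the pair differences of Tnfaip3 run from 0.32 to 0.93.

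Of the subunits, Rel was the one that passed the test. It encodes c-Rel, a subunit with a transactivation domain best known from lymphoid cells, on chromosome 11 from 23736847 to 23770970. Rel was at 30.8, 41.3 and 29.9 CPM in the acLDL-low libraries and 37.3, 48.8 and 37.5 CPM in the acLDL-high ones. The differences within pairs were nearly equal, at 0.27, 0.24 and 0.32, the narrowest spread among the called genes. The log2 fold change was 0.28 (standard error 0.05, 95% interval 0.18 to 0.38, adjusted p = 0.00560 from edgeR), and DESeq2 with the block gave an adjusted p of 0.000934. Without replicate 3 it was 0.26 with an adjusted p of 0.0830.

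The other 4 subunits did not pass. Nfkb1, which encodes p105 and the DNA-binding subunit p50, lies on chromosome 3 from 135584655 to 135691547 and was at 210.3, 213 and 178 CPM in the acLDL-low libraries and 251, 225 and 192 CPM in the acLDL-high ones. Nfkb1 was higher in 3 of 3 pairs. The estimate was 0.15 on the log2 scale (standard error 0.05, 95% interval 0.05 to 0.25, adjusted p = 0.0927 from edgeR). It was called without the low-count filter (adjusted p = 0.0406) and without replicate 2 (0.0166).

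Relb encodes the partner of p52 in the noncanonical pathway, on chromosome 7 from 19606217 to 19629438. It was at 44.6, 38.4 and 43.0 CPM in the acLDL-low libraries and 56.7, 38.1 and 45.2 CPM in the acLDL-high ones. Replicate 1 gave most of its difference, with 0.35, -0.01 and 0.07 in the pairs. Its log2 fold change was 0.14 (standard error 0.06, 95% interval 0.00384 to 0.27, adjusted p = 0.243 from edgeR), and without replicate 2 it was called at 0.21 (adjusted p = 0.0179).

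Nfkb2, which encodes p100 and p52, lies on chromosome 19 from 46304320 to 46312385, where 6.52% of its exon bases overlap Psd and 11.6% a noncoding transcript, both on the opposite strand. It was at 204, 239 and 229 CPM in the acLDL-low libraries and 230, 241 and 233 CPM in the acLDL-high ones. The populations overlapped. Its log2 fold change was 0.07 (standard error 0.05, 95% interval -0.03 to 0.17, adjusted p = 0.441 from edgeR).

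Rela, which encodes p65, the main transactivating subunit, is on chromosome 19 from 5637483 to 5648130. It was at 173, 177 and 199 CPM in the acLDL-low libraries and 191, 173 and 199 CPM in the acLDL-high ones, with the highest values in replicate 3 of both. Rela differed by 0.03 on the log2 scale (standard error 0.05, 95% interval -0.06 to 0.13, adjusted p = 0.739 from edgeR), and it differed in sign between pairs. An increase as large as that of Rel lies outside this interval.

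For none of the 10 genes did all acLDL-high libraries lie above all acLDL-low libraries, which was so for 1.23% of genes tested in the upward direction. The calls therefore rest on the comparison within pairs. Higher levels in all 3 pairs were found for 7 of the 10 genes, against 20.9% of all genes. Tnfaip3, Nfkbiz and Nfkbia had their smallest difference in pair 1 and their largest in pair 3, an order found in 13.7% of all genes and in 14.4% of the 431 genes called higher. Nfkb1, Nfkb2, Rela, Relb and Nfkbie had their largest difference in pair 1, as did 37.4% of all genes.

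For each of the 10 genes the highest and lowest occasions lay further apart than the populations did. A range over 3 occasions tends to be wider than a difference between populations, so this is not a like comparison. Between replicate numbers, 9 of the 10 differed with an adjusted p under 0.05 in the same fit (edgeR F test), but so did 78.0% of all genes, so that this share is close to the background. Averaged over both populations, Tnfaip3 was at 219, 318 and 148 CPM in replicates 1, 2 and 3, and Nfkbia at 96.7, 195 and 109 CPM. In contrast, Nfkbie was at 53.7, 28.7 and 42.2 CPM. Replicate 2 was the highest for Rel, Nfkb2, Nfkbia, Nfkbib, Nfkbiz and Tnfaip3 and the lowest for Rela, Relb and Nfkbie. The ratio of the highest to the lowest occasion was 2.15 for Tnfaip3, 2.02 for Nfkbia and 1.87 for Nfkbie. For Nfkb2, the exception (adjusted p = 0.0660), and for Rela it was 1.11 and 1.14.

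Levels can be compared between genes only per length, here as RPKM on the union of annotated exons. Nfkbia was the most abundant transcript of the family, with a mean over the 6 libraries of 83.1 RPKM and a range of 53.5 to 140 RPKM. Rela followed at 60.3 RPKM (56.2 to 64.9) and Nfkb2 at 50.0 RPKM (44.5 to 52.6). Nfkbia and Rela overlapped in range and Rela and Nfkb2 did not. Tnfaip3 was at 31.6, Nfkbiz at 22.5 and Nfkb1 at 17.5 RPKM, then Nfkbib at 13.8, Nfkbie at 13.6 and Relb at 11.4 RPKM, and each of these neighbours overlapped in range. Rel was the lowest, at 5.04 RPKM (4.01 to 6.54), with a range below that of Relb. The place of Nfkb1 depends on its length. With the longest transcript of 4149 bases in place of the 12061 bases of exon union its libraries lay between 42.9 and 60.5 RPKM and its rank moved from 6 to 4.

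**Figure D3:**
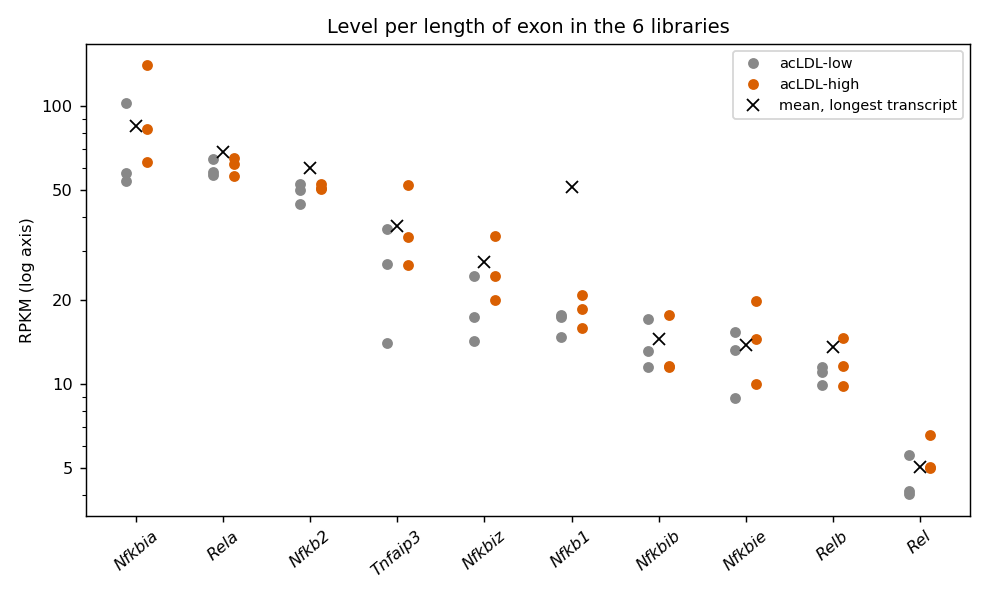
RPKM on the exon union in each of the 3 acLDL-low (grey) and 3 acLDL-high (orange) libraries, on a log axis, with the genes in order of their mean and a cross for the mean computed on the longest transcript. Nfkbia is the highest at 83.1 RPKM and Rel the lowest at 5.04 RPKM, and the cross of Nfkb1 lies far above its points, which reach 20.8 RPKM.

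Ratios within a library do not depend on library scaling. They are formed from the counts already tested above, so they are not separate evidence. The ratio of Tnfaip3 to Rela on the log2 RPKM scale was -1.06, -0.68 and -2.20 in acLDL-low and -0.88, -0.11 and -1.27 in acLDL-high cells, so it was higher in the acLDL-high library of 3 of 3 pairs. That of Nfkbia to Rela was 0.03, 0.83 and -0.27 in acLDL-low and 0.01, 1.32 and 0.34 in acLDL-high cells. It was higher in pairs 2 and 3 and nearly equal in pair 1. For Nfkbia over Nfkbib, the feedback inhibitor over the one that did not pass, the ratio was 2.32, 2.58 and 2.03 in acLDL-low and 2.43, 2.99 and 2.84 in acLDL-high cells. The ratio of Nfkbie to Rel was 1.90, 0.69 and 1.72 against 1.99, 0.61 and 1.53, with no common direction.

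Other genes of the pathway were read by list, beside the 4.75% of all genes called, and no difference between lists was tested. All lists were chosen with earlier results of these data known. The ligand genes Il1a and Tnf, for cytokines that activate NF-kB, rose, and 2 of 7 tested ligands were called. Il1a was at 42.5 against 20.8 CPM, a log2 fold change of 1.02 (adjusted p = 6.50e-06 from edgeR). Tnf was weak, at 2.83 against 1.42 CPM, with 0.93 (adjusted p = 0.00970), and its differences in the pairs were 0.42, 0.83 and 1.34. Il1b, at 0.494 against 0.343 CPM, had 0.52 and did not pass (adjusted p = 0.378). Tnfsf13b, named after its value was seen, went the other way, at 0.211 against 0.500 CPM, with -1.21 (adjusted p = 0.0697 from edgeR). It was higher in 0 of the pairs. The list's median was 0.12, and 1 ligand was called without replicate 3. With at least 10 counts required in every library, 1 ligand was called lower beside the 2 called higher.

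Of 12 tested receptors 5 rose and none fell, with a median of 0.23. They were Tlr2 (0.42, adjusted p = 0.00339 from edgeR) and Tlr3 (0.23, 0.0260), which sense microbial lipopeptides and double-stranded RNA, Il18rap (0.38, 0.00200), the accessory chain of the interleukin-18 receptor, Il1r1 (0.30, 0.00669), the signalling receptor for interleukin-1, and the interleukin-33 receptor Il1rl1 (0.85, 0.0432), which was at 1.10 against 0.622 CPM. The partner chain of Il18rap, Il18r1, had 8 counts in all. The TNF receptor gene Tnfrsf1a had 0.03 and did not pass (0.796). Without replicate 3, 2 of the receptors were called.

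Between receptor and dimer, 1 of 31 kinases and adaptors was called, a share near that of all genes. It was Ikbke, an IkB kinase relative (0.23, adjusted p = 0.0301 from edgeR). The median of this list was 0.00463, and it held 0 calls without replicate 1 or 3 and 3 without replicate 2. Ikbkb, the catalytic subunit that phosphorylates IkB-alpha, had -0.03 (adjusted p = 0.772). In the noncanonical arm 0 of 8 genes were called by edgeR, with 1 at an unadjusted p under 0.05 (Tnfrsf13c, at 0.207 against 0.0898 CPM, named after its value was seen). The kinase of that arm, Map3k14, had 0.07 (adjusted p = 0.501). Among 14 other IkB-like proteins and feedback regulators 1 rose, Zc3h12a, an RNase that degrades inflammatory mRNAs (0.32, adjusted p = 0.00783), and the median was 0.03. That list had 0 calls without replicate 3 and 2 without replicate 2.

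Of 35 tested genes known as targets of NF-kB, 20 rose and 1 fell, with a median of 0.41. The 6 with the smallest p were the chemokine genes Cxcl5 (1.11), Cxcl1 (0.90), Ccl2 (1.15) and Cxcl16 (0.41), Lcn2 (0.88), which encodes the iron-binding lipocalin, and Csf1 (0.44), the macrophage growth factor, with adjusted p from edgeR between 3.67e-07 and 0.000196. The gene that fell was Myc, at -0.33 (adjusted p = 0.00115), named after its value was seen. This list was chosen with earlier results of these data known, so its share is not independent support for NF-kB activity. These targets are also induced by other factors. Without the replicate block 0 of them were called.

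**Figure D4:**
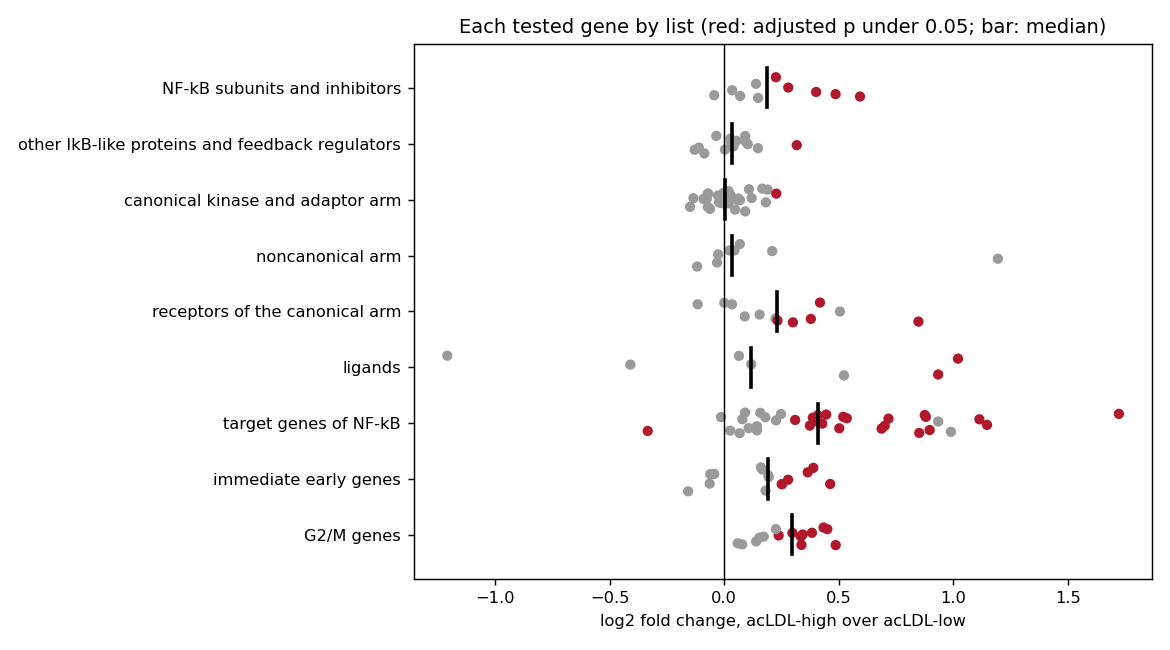
Log2 fold change of acLDL-high over acLDL-low cells (x axis) for every tested gene of each list, with genes of an adjusted p under 0.05 in red and the median of the list as a bar. The bar of the kinases and adaptors lies at 0.00463 and that of the target genes at 0.41, with Myc as the 1 red point below 0 in that list.

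Other groups moved with the sort as well. Of 15 immediate early genes, which serum and handling induce, 5 rose and none fell (Nr4a1, Egr3, Junb, Fos and Dusp1), with a median of 0.19 and with 0.21, -0.00827 and 0.31 in the pairs. Their count was 1 without replicate 3, 10 higher and 1 lower without replicate 2, and 4 higher and 1 lower in DESeq2 with the block. Of 15 G2/M genes 9 rose and none fell, among them Cdk1 (0.43), Top2a (0.45), Ccnb1 (0.49), Aurkb (0.33), Kif11 (0.38) and Aurka (0.34), with a median of 0.30 and with 0.14, 0.40 and 0.28 in the pairs. The 9 became 4 without replicate 3. Neither group had a call without the block. The part of these groups in the differences of the NF-kB genes was not tested.

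Over the 6 libraries, the genes whose log2 CPM ran most nearly parallel to that of a called gene were named from 10528 genes by Pearson's r. As the libraries are 3 pairs, these values describe mainly the differences between occasions. Each is among the 3 highest of 10528 genes, and the values that such a search gives for other genes were not computed. For Tnfaip3 they were Ska3 (0.993), Anln (0.991) and Sgo1 (0.987), for Nfkbia Pfdn5 (0.993), Smc4 (0.992) and Zdhhc6 (0.992), and for Nfkbiz Ube2a (0.995), Cep295 (0.993) and Gtpbp10 (0.988). For Rel they were Bcap31 (0.994), Dlat (0.993) and Macc1 (0.989), and for Nfkbie Tmem165 (0.997), Rsbn1l (0.995) and Ifi202b (0.995). No gene was named for more than 1 of the 5.

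**Figure D5:**
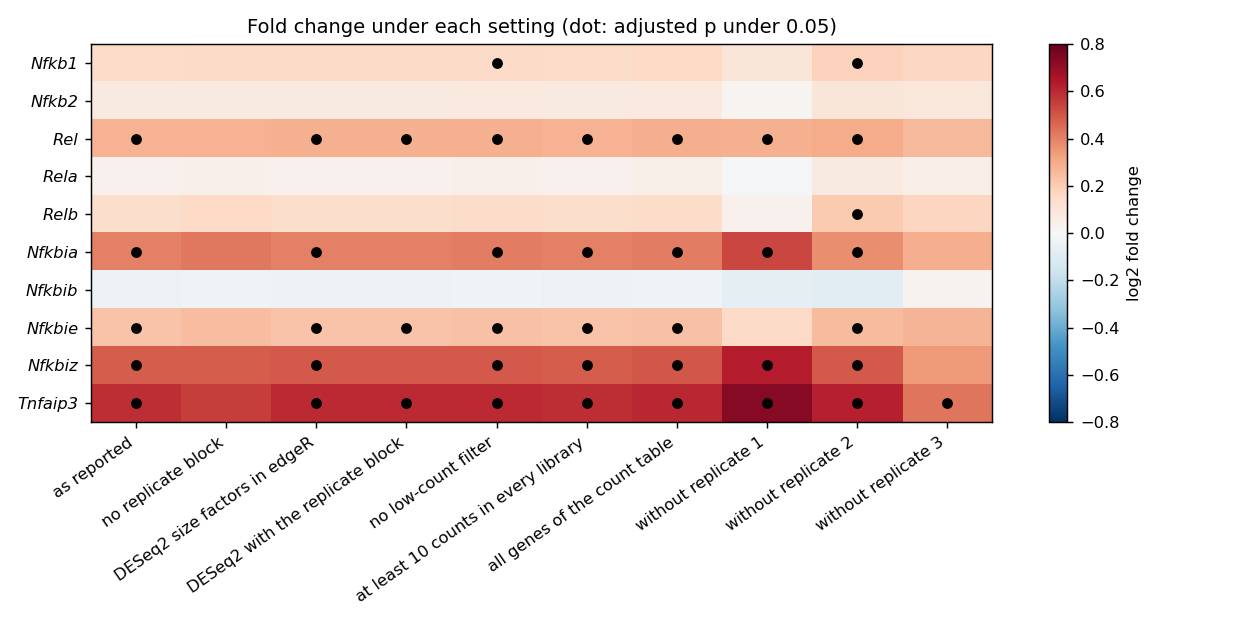
Log2 fold change (colour scale) of each gene (rows) under each way of computing it (columns), with a dot where the adjusted p was under 0.05. Tnfaip3 has a dot in every column except the fit with no replicate block, where no gene has one, and keeps the only dot without replicate 3.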

How the data were processed

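Paired-end reads of stranded poly(A) libraries were aligned by the authors to mm10 with STAR (version 2.5.2a) and the raw count of reads per gene, from featureCounts, was deposited without normalization for 53379 gene IDs. The annotation release and strand setting of the counting are not given in the sources used here. The authors also deposited a DESeq2 (version 1.20.0) comparison with mean counts, fold changes, errors, statistics and p-values. Of that file the gene IDs and symbols were used and no other column.

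Counts of the 15973 genes of that table were filtered with filterByExpr, scaled by TMM and tested in edgeR (version 4.0.16, R 4.3.3) with glmQLFit and glmQLFTest, with replicate numbers entered as blocks, following the study's methods. P-values were adjusted by Benjamini-Hochberg across the 12572 genes that passed the filter and called under 0.05, and lists were read by counts and medians without a set test. Standard errors are log2 fold changes divided by the square root of F, and intervals use the total degrees of freedom. Differences within pairs were taken between log2 CPM values (prior count 2). The series description gives separate occasions, and the sample titles give replicate numbers. That libraries with the same number share an occasion or culture is not stated outright and was taken from the data. Deviations from the population means correlated across genes at 0.795, 0.846 and 0.799 for libraries sharing a number. Between populations, libraries of different numbers gave values from -0.557 to -0.0882. Values within a population were also negative, but subtracting the mean of 3 libraries favours that whatever the pairing. No library repeated another, as chi-square over its degrees of freedom was at least 20.5 between any of them. Positions and lengths are from GENCODE M21 on GRCm38, which holds 53274 of the gene IDs. The genes, the lists and the markers were chosen with earlier results of these data known. Genes of the lists are named where called (the 6 smallest p where more passed), with Tnf, Il1a, Il1b, Tnfrsf1a, Il1r1, Ikbkb and Map3k14 in any case, and for each called gene of the family the 3 genes of nearest pattern with a mean log2 CPM of at least 1. The scripts were checked on simulated counts. Alternatives were DESeq2 (version 1.42.0) with the block or its size factors alone in edgeR, no block, other low-count filters, all genes of the count table, a threshold of 0.01, leaving out each pair, and the longest transcript as length.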

Additional observations from a re-analysis of the deposited data

How the results depend on the processing

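The 5 genes called higher became 0 without the replicate block, where edgeR called 0 of 12329 genes, with 45 (0.365%) at an unadjusted p under 0.05 and none of these in the family, although the log2 fold changes of the 5 were then between 0.24 and 0.55. DESeq2 with the block called 3 (Rel, Nfkbie and Tnfaip3). Leaving out one pair gave from 1 called gene without replicate 3 (Tnfaip3) to 7 without replicate 2, and over all genes from 112 to 602 higher and from 14 to 267 lower. The cause of these differences was not tested. Over all genes, 431 were higher and 166 lower, 0 and 0 without the block, 669 and 263 with no low-count filter, and 171 and 28 at an adjusted p under 0.01, where the 5 genes became 4. Without one pair the log2 fold change of Nfkbib, -0.04 with all, ranged from -0.090 to 0.031, and that of Rela, 0.03 with all, from -0.017 to 0.070, and neither was called in any fit. Of 90 values of single genes under the alternatives, 52 with every pair kept and 21 with one pair left out had the same direction and side of the threshold.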
